A study of Homo sapiens with 4 samples.

Results

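The serine/arginine-rich splicing factors (SRSF), their relatives TRA2A and TRA2B, the CDC-like kinases (CLK), the heterogeneous nuclear ribonucleoproteins (HNRNP) and the RNA-binding motif proteins (RBM) were followed in SH-SY5Y, an established cell line from a human neuroblastoma. The members were all protein-coding genes whose symbol is CLK1 to CLK4, TRA2A or TRA2B, or begins with SRSF, HNRNP or RBM and goes on with numbers or letters of the family, apart from 2 such genes that are not analysed here. The choice used names only, and 78 of 58243 genes in each table met it: 12 SRSF, 2 TRA2, 4 CLK, 23 HNRNP and 37 RBM genes. After a filter on low counts 71 of the 78 were tested among 14759 genes.

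RNA sequencing was available for 4 libraries, 2 per group, carrying the replicate letters a and b. The control group was untreated, and the other group received sodium nitroprusside (SNP), which releases nitric oxide, for 8 h; its RNA is named oxidized in the labels, which leave the sequenced dose unstated. Both groups grew in medium with 10% fetal bovine serum and settled for 24 h after plating; the treatment text speaks of cells differentiated with retinoic acid, which the growth text does not mention. Nothing in the labels says that the 2 libraries of a group came from separate cultures, so the p-values measure the spread between these libraries, which may be technical, and a tumour line of 1 origin limits what the groups can stand for.

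Splicing removes introns from a transcript, and the choice of splice sites depends on proteins that bind the pre-mRNA near them. SR proteins bind exonic enhancers through their RNA recognition motifs and recruit the spliceosome through a tail of arginine-serine repeats; CLK kinases phosphorylate that tail in the nucleus and set free SR proteins stored in nuclear speckles. Many HNRNP proteins coat nascent transcripts and often silence exons or compete with SR proteins, while RBM is a naming class that joins splicing factors with proteins of other roles in RNA metabolism. Many of these genes control their own level by splicing in a poison exon or retaining an intron, and neurons rely on such factors for a large set of neuron-specific exons.

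The 4 libraries held 5613144 to 8056550 gene counts, and 3 counts correspond to 0.372 to 0.534 counts per 1000000 counts (CPM), which covers counting error only. CPM values below are scaled by TMM, whose factors lay between 0.989 and 1.01. Of 12 markers of adrenergic neuroblastoma, the labelled cell type, TH was at 0 counts in every library; their summed level was 4074 and 4107 CPM in control and 3262 and 3347 CPM in SNP libraries, with 3 genes higher and 6 lower. Leukocyte markers summed to 0.629 to 1.30 CPM, with PTPRC, CD3E and AIF1 among those at 0, and epithelial markers to 3.50 to 5.50 CPM, with KRT5 at 0. SOX10 was among the mesenchymal or Schwann-like markers at 0; the sum over the 8 was 238 and 265 CPM in control and 178 and 177 CPM in SNP libraries. The 5 fibroblast markers summed to 48.7 and 39.1 CPM in control and 63.7 and 64.2 CPM in SNP libraries. Of these, COL3A1, which held most of each sum, was higher (log2 fold change 0.68), and COL1A2 was lower (-1.67). The share of counts on mitochondrial genes was 4.99% and 4.43% in control and 2.99% and 2.72% in SNP libraries. What these shifts contribute to the values of the splicing regulators was not tested, and in bulk RNA fewer cells of a kind and less RNA per cell cannot be told apart.

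Most of the splicing regulators had more transcript after SNP. Of the 71 tested, 41 rose and 1, HNRNPL, fell; 29 did not pass the threshold, an adjusted p-value of 0.05 from the quasi-likelihood test of edgeR, adjusted over all 14759 genes by the Benjamini-Hochberg method. The members called higher were thus 57.7% of those tested, against 13.6% of all genes called higher, 12.6% called lower and 26.2% called in either direction. Both SNP libraries lay above both control libraries for 51 of the 71, where 31.7% of all genes did so. They lay below both for 6 of the 71, where 4768 of all 14759 genes did so. The median log2 fold change of SNP over control was 0.37 among the members and -0.0042 among all genes tested, and the members spanned -0.38 to 1.37. An absolute log2 fold change of 1 was passed by 2 called members, HNRNPAB and HNRNPA1, both higher. Among all 14759 genes, 400 called higher and 247 called lower passed it.

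The summed level of all 78 genes went from 11251 ± 268 CPM in control to 15644 ± 1570 CPM in SNP libraries (SD, n = 2 each), a ratio of 1.39. By family the ratio was 1.56 for HNRNP, 1.41 for TRA2, 1.38 for CLK, 1.30 for SRSF and 1.19 for RBM genes. The SNP libraries were unequal: SNP a was above SNP b in 55 of 71 members, in 12 of 12 SRSF and 17 of 19 HNRNP genes, and in 21 of 34 RBM genes. The median log2 gap between SNP a and SNP b was 0.16 over the members, against 0.048 between control a and control b. Leaving out control a, control b, SNP a or SNP b, the members' median log2 fold change was 0.38, 0.34, 0.28 and 0.46. In the same fits the median of all genes was 0.0055, 0.010, -0.011 and -0.012.

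**Figure D1:**
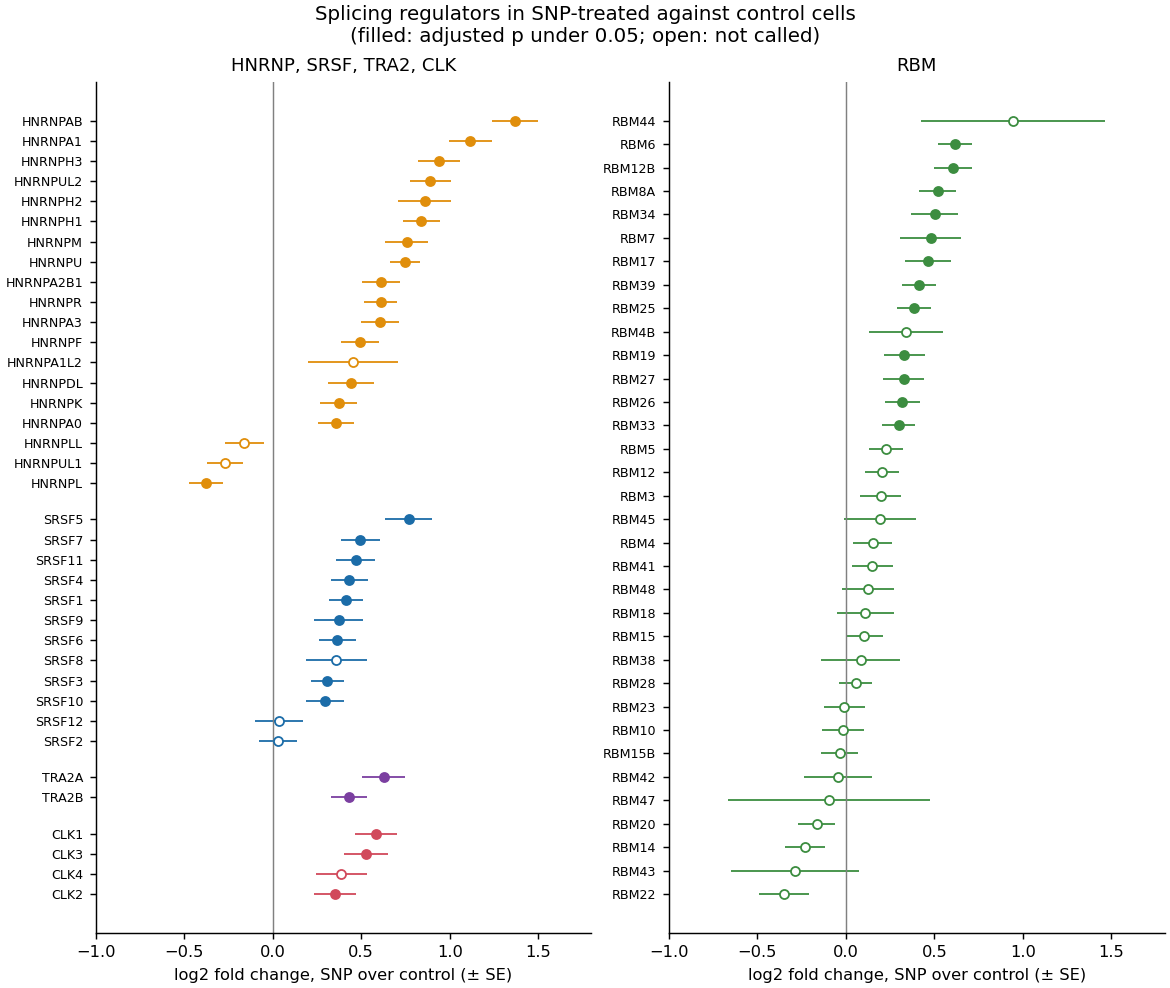
Log2 fold change of SNP over control for each of the 71 tested splicing regulators (x axis; points are estimates, bars the standard error), with the HNRNP, SRSF, TRA2 and CLK genes on the left and the RBM genes on the right. Filled points passed an adjusted p-value of 0.05; 41 filled points lie to the right of 0, and 1, HNRNPL, lies to the left.

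The members' changes followed the base composition of their transcripts. Composition was taken as the percentage of guanine minus that of cytosine over all annotated transcripts of a gene; its median was 3.33 percentage points among the 71 members and 1.04 among all genes. HNRNP genes were the most guanine-rich family, with a median of 7.89, which puts the median HNRNP member at the 99.2 percentile of all genes; SRSF genes had a median of 3.002, RBM genes 2.16 and CLK genes 1.77. Across the 71 genes the log2 fold change and this difference had a Spearman correlation of 0.76, against 0.48 across 14724 genes, as a description: the points share 4 libraries, and genes are not independent replicates. The correlation was 0.71 with the coding region alone and 0.33 with the 3' untranslated region, and -0.29 with GC content and 0.032 with exon length. Within families it was 0.70 over 19 HNRNP, 0.68 over 34 RBM and 0.64 over 12 SRSF genes.

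To show what the difference looks like in the transcripts, 1 stretch of 90 bases is printed for 5 members, the stretch whose composition is nearest to that of the gene's whole coding region, with guanines in capitals (GRCh38 positions from GENCODE 29, 5′ to 3′ on the coding strand). HNRNPH3 and SRSF5 rose, SRSF2 and HNRNPUL1 did not pass the test, and HNRNPL fell. These 5 were not picked by a rule. CLK2, CLK3 and RBM33, which rose although their transcripts hold slightly more cytosine than guanine, are not among them. The stretches hold 32 guanines and 15 cytosines in HNRNPH3 (chr10:68338550-68338639, plus strand) and 18 and 9 in SRSF5 (chr14:69771009-69771098, plus strand). The stretch of SRSF2 (chr17:76737049-76737138, minus strand) has 26 and 30, that of HNRNPL (chr19:38847330-38847419, minus strand) 28 and 27, and that of HNRNPUL1 (chr19:41268235-41268324, plus strand) 20 and 21.
HNRNPH3: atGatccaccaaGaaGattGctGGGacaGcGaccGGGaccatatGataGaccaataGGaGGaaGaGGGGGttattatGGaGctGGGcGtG
SRSF5: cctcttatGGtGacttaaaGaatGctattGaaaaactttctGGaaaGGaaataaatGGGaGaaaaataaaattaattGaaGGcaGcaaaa
SRSF2: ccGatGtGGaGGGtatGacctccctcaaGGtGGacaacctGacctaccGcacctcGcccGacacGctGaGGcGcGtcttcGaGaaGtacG
HNRNPL: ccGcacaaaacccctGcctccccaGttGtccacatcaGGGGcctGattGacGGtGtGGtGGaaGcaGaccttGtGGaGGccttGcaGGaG
HNRNPUL1: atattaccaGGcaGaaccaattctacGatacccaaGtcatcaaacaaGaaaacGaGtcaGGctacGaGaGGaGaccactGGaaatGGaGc

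Over the whole coding region guanine exceeded cytosine by 18.7 percentage points in HNRNPH3 and 10.0 in SRSF5, whose log2 fold changes were 0.94 and 0.77. The difference was 1.58 in HNRNPL, -0.974 in HNRNPUL1 and -4.98 in SRSF2, with log2 fold changes of -0.38, -0.27 and 0.03. Members were also counted in steps of the composition of all transcripts. Where guanine exceeded cytosine by at least 7.5 points, 10 of 11 members were called higher (90.9%), against 47.4% of the 154 genes of all kinds in that range. From 5 to 7.5 points it was 7 of 8 members (87.5%) and 42.6% of all genes, and from 2.5 to 5 points 16 of 23 members (69.6%) and 27.3%. Below that the shares were lower: 5 of 19 members (26.3%) and 10.3% of all genes from 0 to 2.5 points, and 3 of 10 members (30%) and 3.59% of all genes below 0.

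The same table was fitted again with offsets that remove, library by library, the smooth trends of counts on length, on GC content and on the excess of guanine over cytosine. In that fit 12 members were higher (16.9%, against 10.9% of all genes) and 4 lower (5.63%, against 10.2%), the members' median log2 fold change was 0.095, against -0.0034 for all genes, and 11 of the 41 genes called higher before were called higher again. The rank correlation with composition was then -0.028, which follows from the fit itself, since the offsets remove that trend. In that edgeR fit 0 of 14 SRSF and TRA2 genes were called, with 4 at an unadjusted p under 0.05, all higher; CLK2 and CLK3 did, as did 6 HNRNP genes higher and 3 lower and 4 RBM genes higher and 1 lower. The 2 SNP libraries differed along the same axis: the log2 ratio of SNP b over SNP a correlated with composition at -0.52 across the members and -0.32 across all genes, whereas control b over control a gave -0.12 and -0.033. The part that composition has in the members' changes was not tested beyond these values.

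**Figure D2:**
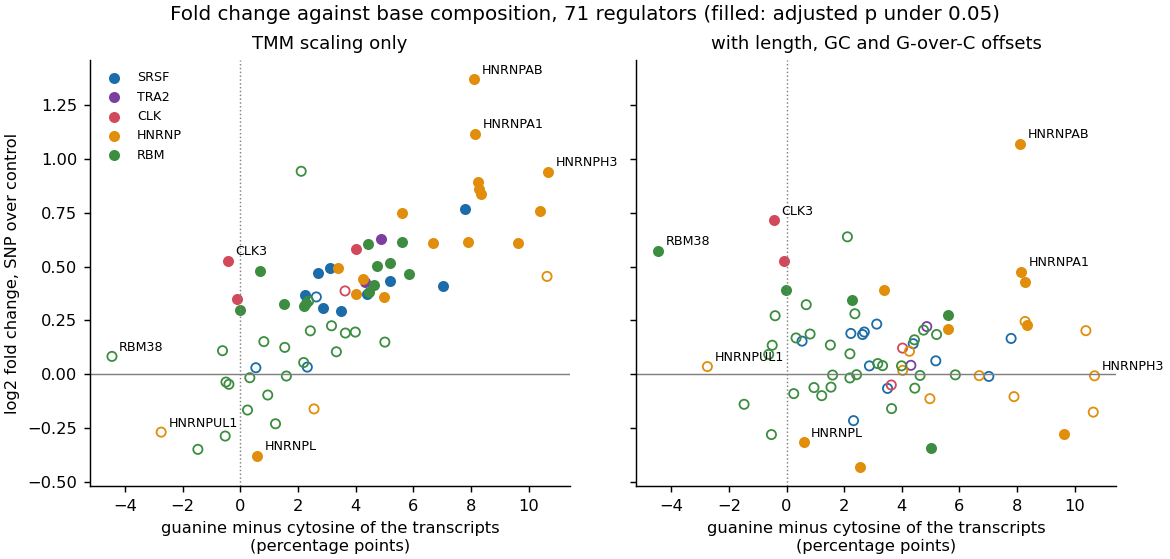
Log2 fold change of SNP over control (y axis) against guanine minus cytosine of the transcripts in percentage points (x axis) for the 71 tested members, coloured by family; filled points passed an adjusted p-value of 0.05. In the left panel, with library scaling only, RBM38 is farthest left at -4.45 points and 0.083, followed by HNRNPUL1 at -2.75 points and -0.27, and HNRNPH3 is farthest right at 10.69 points and 0.94; in the right panel, with the offsets, HNRNPH3 is at -0.0072 and HNRNPAB at 1.07.

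The kinases that act on SR proteins were higher in SNP libraries for 3 of 4 genes (75%, against 13.6% of all genes). CLK1 (ENSG00000013441; chr2:200853009-200864744, minus strand) is known for a reserve of nuclear transcripts that keep introns until the kinase is needed. It measured 54.0 and 51.8 CPM in control a and b and 82.2 and 76.2 CPM in SNP a and b, so that the groups did not overlap. The log2 fold change was 0.58 (SE 0.12; edgeR quasi-likelihood, Benjamini-Hochberg adjusted p = 0.0011), which fell to 0.12 and off the call with the composition offsets. CLK3, known for high levels in testis, had 50.9 and 59.1 CPM in control and 75.4 and 83.0 CPM in SNP libraries. Its log2 fold change of 0.53 (SE 0.124; edgeR adjusted p = 0.0032) was 0.71 with the offsets (edgeR adjusted p = 3.4e-04). CLK3 was thus among the members whose transcripts are not guanine-rich, at -0.44 points, and that still rose. Its exons, of 20443 bases, overlap EDC3 and other genes by 1360 bases summed over those genes. The call of CLK3 was lost without control a.

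CLK2, a kinase also active in insulin and growth signalling, went from 60.1 and 61.4 CPM in the control libraries to 80.1 and 74.9 CPM in the SNP libraries. Its transcripts hold guanine and cytosine nearly evenly (-0.10 points), and its log2 fold change was 0.35 (SE 0.117; edgeR adjusted p = 0.0307) and 0.53 with the offsets (edgeR adjusted p = 0.0022). The call for CLK2 was lost in DESeq2's Wald test and when control a, control b or SNP a was left out. CLK4, the closest relative of CLK1, measured 33.8 and 30.2 CPM in control and 43.4 and 40.3 CPM in SNP libraries. Both SNP values were the higher ones. The log2 fold change of 0.39 (SE 0.144) had an edgeR adjusted p of 0.0523 and was not called. With the offsets the log2 fold change of CLK4 was -0.050, also not called.

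Of the SR proteins, 9 of 12 rose (75%, against 13.6% of all genes called higher) and 3 were not called. The median log2 fold change was 0.37. All 12 estimates were positive, as were 7329 of 14759 among all genes tested. SRSF5 (ENSG00000100650; chr14:69726900-69772005, plus strand), an SR protein whose gene was first described in regenerating liver, moved most. Its level was 95.6 and 74.0 CPM in control a and b and 163 and 126 CPM in SNP a and b. Both SNP values lay above both controls, although each group spread by more than 20 CPM. The log2 fold change was 0.77 (SE 0.133; edgeR quasi-likelihood, Benjamini-Hochberg adjusted p = 2.3e-04), a 1.70-fold rise. SRSF5 is also the most guanine-rich SRSF gene, at 7.79 points, and with the offsets its log2 fold change was 0.17 and was not called.

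SRSF1, the founding SR protein, which binds purine-rich exonic enhancers, was the most abundant family member per length. It stood at 493 and 516 transcripts per 1000000 transcripts (TPM) in control and 769.6 and 685 TPM in SNP libraries. Its log2 fold change on counts was 0.41 (SE 0.0962, edgeR adjusted p = 0.0031), and -0.01 with the offsets. Overlaps with AC015813.2 and AC015813.5, summed over these genes, came to 2330 bases, beside 3340 exonic bases of SRSF1. SRSF3, the smallest SR protein, went from 257 and 268 CPM to 339 and 311 CPM, a log2 fold change of 0.31 (edgeR adjusted p = 0.0197). SRSF7, which carries a zinc knuckle and exports messenger RNA, went from 94.5 and 98.2 CPM to 145 and 126 CPM, a log2 fold change of 0.50 (edgeR adjusted p = 0.0021). In each of these 3 genes the groups stayed apart, and SNP a was the highest library; the SRSF3 call was lost without control a, control b or SNP a.

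SRSF4, SRSF6 and SRSF11 have long arginine-serine tails and had log2 fold changes between 0.37 and 0.47. SRSF4 measured 161 and 143 CPM in control and 219.9 and 191 CPM in SNP libraries (log2 fold change 0.43). SRSF6 measured 205 and 195 CPM and 280.1 and 236 CPM (log2 fold change 0.37). SRSF11, needed for neuronal microexons, measured 190.3 and 194 CPM and 298 and 234 CPM (log2 fold change 0.47). All 3 passed the edgeR test, and each lost its call when 1 library was left out, control b for SRSF4, control b or SNP a for SRSF6, and SNP a for SRSF11.

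The remaining SRSF genes were near the threshold or not called. SRSF10, which turns into a general repressor of splicing when heat shock strips its phosphates, had 191 and 174 CPM in control and 245 and 203 CPM in SNP libraries, and SRSF9 had 39.8 and 44.6 CPM and 58.9 and 50.05 CPM. Their edgeR adjusted p-values were 0.0467 and 0.0477, and both calls were lost in DESeq2's Wald test and without control a, control b or SNP a. SRSF8, a relative of SRSF2, had 28.2 and 20.2 CPM and 31.5 and 31.0 CPM (log2 fold change 0.36, edgeR adjusted p = 0.1305). SRSF2, a core component of nuclear speckles, had 136 and 129 CPM in control and 144 and 127 CPM in SNP libraries, with SNP b below both controls and SNP a above them. SRSF12, a relative of SRSF10, likewise overlapped between groups, at 40.7 and 42.4 CPM and 44.2 and 40.8 CPM. The log2 fold changes of SRSF2 and SRSF12 were 0.03 (SE 0.107) and 0.033 (SE 0.136).

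Both TRA2 genes, whose proteins bind GA-rich enhancers and are known for promoting exon 7 of SMN2, rose. TRA2A (ENSG00000164548; chr7:23504780-23532041, minus strand) went from 119 and 105 CPM in control a and b to 197 and 149.6 CPM in SNP a and b, a log2 fold change of 0.63 (SE 0.122; edgeR adjusted p = 6.9e-04). TRA2B (ENSG00000136527; chr3:185915906-185938136, minus strand) went from 271 and 259 CPM to 387 and 327 CPM, a log2 fold change of 0.43 (SE 0.0998; edgeR adjusted p = 0.0029). Groups were apart for both, with SNP a highest, and neither was called with the offsets, where the values were 0.22 and 0.042.

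**Figure D3:**
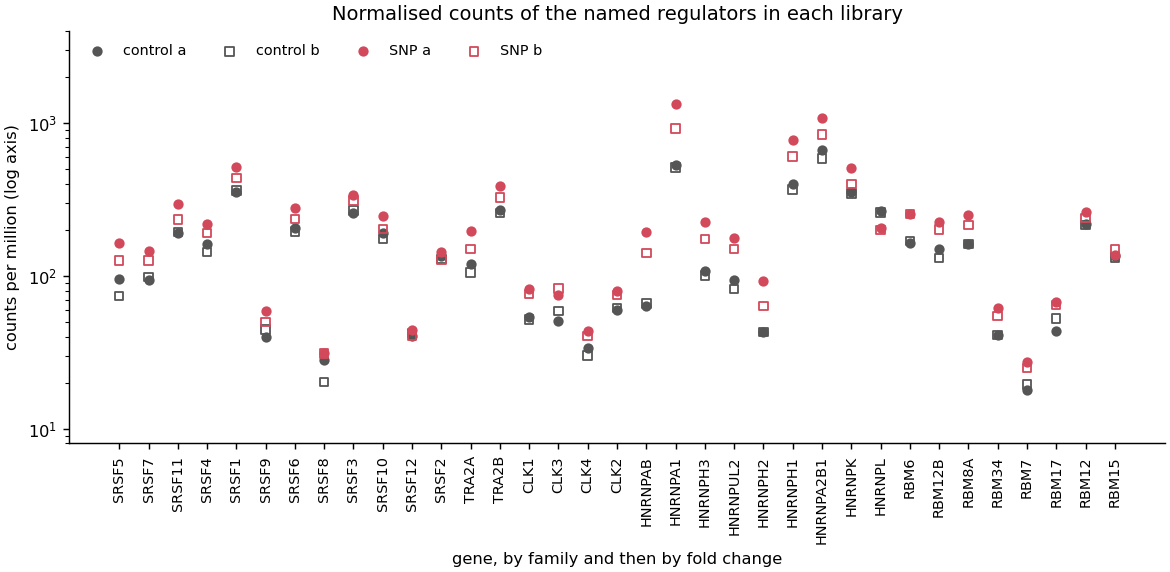
CPM (y axis, log scale) of the named members in each of the 4 libraries, ordered by family and then by fold change; grey marks are control and red marks SNP libraries, filled circles replicate a and open squares replicate b. HNRNPA1 spans 529 and 512 CPM in control to 1335 and 923 CPM in SNP libraries, while the 4 marks of SRSF2 and SRSF12 overlap.

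In the HNRNP family 15 of 19 tested genes rose (78.9%, against 13.6% of all genes), HNRNPL fell and 3 were not called. The median log2 fold change was 0.61, the highest of the families. With the offsets the median was 0.036, the lowest. It was then 0.32 for CLK, 0.15 for SRSF, 0.13 for TRA2 and 0.071 for RBM genes. HNRNPAB (ENSG00000197451; chr5:178204507-178211163, plus strand), a protein of the A/B class that also binds trafficking signals in neuronal messenger RNA, changed most of all members. It measured 63.5 and 66.0 CPM in control a and b and 193 and 141 CPM in SNP a and b, so both treated libraries held over 2 times the control level. The log2 fold change was 1.37 (SE 0.131; edgeR quasi-likelihood, Benjamini-Hochberg adjusted p = 3.1e-07). With the offsets it was 1.07 (edgeR adjusted p = 6.8e-05), the highest of the members in that fit too.

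HNRNPA1 (ENSG00000135486; chr12:54280193-54287088, plus strand) silences exons, among them exon 7 of SMN2, and was the most abundant HNRNP gene per length. It measured 529 and 512 CPM in control and 1335 and 923 CPM in SNP libraries. SNP a stood well above SNP b, and both were far above the controls. The log2 fold change was 1.12 (SE 0.119; edgeR adjusted p = 1.2e-06) and 0.48 with the offsets (edgeR adjusted p = 0.0016). The genome holds 75 named pseudogenes of HNRNPA1, which were counted 16 and 15 times in control and 31 and 26 times in SNP libraries, 0.365% of the gene and its copies together; reads of such copies can be assigned to the parent or lost.

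The other proteins of the A/B class rose less. HNRNPA2B1, a partner of HNRNPA1 in silencing, went from 667 and 589 CPM to 1079 and 842 CPM, a log2 fold change of 0.61 (SE 0.105; edgeR adjusted p = 2.1e-04). HNRNPA3, named after its values were seen, went from 338 and 347 CPM to 591 and 454 CPM, a log2 fold change of 0.61. HNRNPA3 is the member whose call turned: with the offsets it was -0.28 (edgeR adjusted p = 0.0142), and HNRNPA2B1 went to -0.10 without a call. HNRNPA0, a further relative, had a log2 fold change of 0.36 (edgeR adjusted p = 0.0114), lost without control a or control b.

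HNRNPH1, HNRNPH2, HNRNPH3 and HNRNPF form a class that binds runs of guanines in RNA, and all 4 rose. HNRNPH1 (ENSG00000169045; chr5:179614178-179634784, minus strand) measured 401 and 369 CPM in control and 773 and 604 CPM in SNP libraries, a log2 fold change of 0.84 (SE 0.105; edgeR adjusted p = 8.2e-06). HNRNPH2, its copy on the X chromosome, measured 42.7 and 43.0 CPM and 92.0 and 63.4 CPM, a log2 fold change of 0.86 (SE 0.15; edgeR adjusted p = 2.5e-04). HNRNPH3 measured 108 and 100.3 CPM and 226 and 174 CPM, a log2 fold change of 0.94 (SE 0.119; edgeR adjusted p = 8.9e-06). In these 3 genes SNP a was the highest library and no control value reached an SNP value. HNRNPF had a log2 fold change of 0.49 (edgeR adjusted p = 0.0018), lost without control a. With the offsets HNRNPF kept 0.39 and HNRNPH1 0.23, both called, while HNRNPH2 was at 0.24 and HNRNPH3 at -0.0072, not called; the printed stretch of HNRNPH3 comes from the most guanine-rich tested member, at 10.69 points.

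HNRNPU, a chromatin-bound scaffold protein that also binds RNA, had the highest counts of the family and was named after its values were seen. It went from 1211 and 1186 CPM in control to 2112 and 1912 CPM in SNP libraries, a log2 fold change of 0.75 (SE 0.0831; edgeR adjusted p = 2.0e-06), with 3502 of 22512 exonic bases shared with COX20. HNRNPUL2, a relative with a nucleotide-binding domain, went from 94.4 and 81.8 CPM to 177 and 150.1 CPM, a log2 fold change of 0.89 (SE 0.115; edgeR adjusted p = 1.2e-05). Both kept their call with the offsets, at 0.21 and 0.43, but 2391 exonic bases of HNRNPUL2 also belong to the readthrough gene HNRNPUL2-BSCL2, whose reads cannot be told apart there. HNRNPUL1, the third of this group, was lower in both SNP libraries without a call: it had 239.8 and 223 CPM in control and 180.0 and 205 CPM in SNP libraries, and its log2 fold change of -0.27 had an edgeR adjusted p of 0.0535; limma-voom called it, and with the offsets the value was 0.036.

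HNRNPK, which binds cytosine-rich RNA through KH domains, went from 352 and 347 CPM to 508 and 399 CPM. Its log2 fold change was 0.37 (SE 0.104, edgeR adjusted p = 0.0111), a call lost without SNP a. With the offsets the log2 fold change of HNRNPK was 0.018 and was not called. HNRNPM and HNRNPR, both also involved in alternative splicing or RNA transport, had log2 fold changes of 0.76 and 0.61, and HNRNPDL 0.44; all 3 passed the test and none did with the offsets, and the HNRNPDL call was lost without control b or SNP a. HNRNPA1L2, an expressed copy of HNRNPA1 at 11.1 and 7.28 CPM in control and 14.5 and 10.9 CPM in SNP libraries, was not called.

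HNRNPL (ENSG00000104824; chr19:38836388-38852347, minus strand), which binds CA-rich elements and both silences and promotes exons, was the one member that fell. It measured 267 and 261 CPM in control a and b and 206 and 200.5 CPM in SNP a and b. The replicates were close and the groups did not overlap. The log2 fold change was -0.38 (SE 0.0947; edgeR quasi-likelihood, Benjamini-Hochberg adjusted p = 0.0053), and it was -0.31 with the offsets (edgeR adjusted p = 0.0069); the call was lost without control a and with the read totals behind the RPKM values as library sizes. HNRNPLL, its paralog known for CD45 splicing in T cells, had 111 and 128 CPM and 103 and 110.0 CPM; its log2 fold change of -0.16 was not called, and with the offsets it was -0.43 (edgeR adjusted p = 0.0096).

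RBM genes were mixed: 12 of 34 tested rose (35.3%, against 13.6% of all genes), 0 fell and 22 were not called. Their median log2 fold change was 0.19. Of all genes 12.6% were called lower. At an unadjusted p under 0.05 edgeR had 1 RBM gene lower, RBM22. DESeq2 and limma-voom also called 0 lower at the adjusted threshold. RBM6 (ENSG00000004534; chr3:49940007-50100045, plus strand), a relative of the apoptosis-linked splicing factors RBM5 and RBM10, rose most of those called. It measured 163 and 169 CPM in control and 255 and 254 CPM in SNP libraries, and the replicates of each group lay close together. The log2 fold change was 0.61 (SE 0.0965; edgeR quasi-likelihood, Benjamini-Hochberg adjusted p = 8.4e-05) and 0.27 with the offsets (edgeR adjusted p = 0.0195). RBM5, its neighbour on chromosome 3, had 183 and 174 CPM in control and 211 and 206 CPM in SNP libraries and was not called. RBM6 shares 520 exonic bases, summed over the genes, with RBM5 and its antisense gene. RBM10, on the X chromosome, overlapped between groups at 82.5 and 85.4 CPM and 74.8 and 91.3 CPM.

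Members with a part in the exon junction complex and the spliceosome were next. RBM8A, the Y14 subunit that stays on messenger RNA upstream of exon junctions, measured 163 and 162 CPM in control and 250.4 and 215 CPM in SNP libraries, a log2 fold change of 0.52 (SE 0.103; edgeR adjusted p = 8.2e-04). RBM17, a factor of the early spliceosome, measured 43.5 and 52.7 CPM and 67.9 and 64.7 CPM, a log2 fold change of 0.47 (SE 0.13; edgeR adjusted p = 0.0108). The groups were apart in both genes, and neither was called with the offsets, where they were at 0.18 and -0.0028. RBM39, a relative of the splicing factor U2AF2, and RBM25, which activates an apoptotic splice form of BCL2L1, had log2 fold changes of 0.41 and 0.38, both called, RBM25 not without control b and RBM17 not without control a. RBM22, a subunit of the catalytic spliceosome, was lower in both SNP libraries, at 44.6 and 41.7 CPM in control and 35.1 and 32.7 CPM in SNP libraries; its log2 fold change of -0.35 was not called (edgeR adjusted p = 0.0716), and 9 pseudogenes held 14.1% of the reads of the gene and its copies.

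RBM12B, RBM34 and RBM7 complete the 6 RBM genes that rose most. With the offsets their log2 fold changes were 0.16, 0.20 and 0.32, and none of them was called. RBM12B measured 149 and 131 CPM in control and 225 and 201 CPM in SNP libraries (log2 fold change 0.60, SE 0.106, edgeR adjusted p = 2.5e-04). RBM34, a nucleolar protein, measured 41.3 and 41.2 CPM and 62.1 and 54.7 CPM (log2 fold change 0.50, SE 0.131, edgeR adjusted p = 0.0071). RBM7, part of the complex that brings nuclear transcripts to the exosome, measured 17.9 and 19.5 CPM and 27.2 and 24.9 CPM (log2 fold change 0.48, SE 0.172, edgeR adjusted p = 0.0443). SNP values exceeded control values in all 3, and the RBM7 call was lost in DESeq2's Wald test and without control a, control b or SNP a, that of RBM34 without control a or control b. Summed over neighbours, exons of RBM12B share 2958 bases with genes such as FAM92A and those of RBM7 913 bases with C11orf71 and another gene. Those of RBM34 share 1603 bases with ARID4B.

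RBM26 and RBM27, partners in nuclear RNA decay, RBM19, needed for ribosomal RNA processing, and RBM33, a cofactor of RNA demethylation, had called log2 fold changes of 0.32, 0.33, 0.33 and 0.30. All 4 calls were lost when either control library was left out. RBM19 and RBM33 passed with the offsets, at 0.34 and 0.39, as did RBM38, a p53 target, at 0.57 (edgeR adjusted p = 0.0475), although its log2 fold change without offsets was 0.083; RBM41, at 0.15 without offsets, was lower with them at -0.34. These genes were named after their values were seen.

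The m6A-writer adaptor RBM15 and RBM12, both among the 3 most abundant RBM genes per length, did not pass. RBM15 had 134 and 132 CPM in control and 137 and 150.3 CPM in SNP libraries (log2 fold change 0.10, SE 0.104). RBM12 had 219 and 215 CPM and 261 and 239 CPM (log2 fold change 0.20, SE 0.0964). The cold-inducible RBM3 had 78.3 and 85.0 CPM and 99.4 and 87.5 CPM and the cardiac titin splicing factor RBM20 140.3 and 134 CPM and 118 and 127 CPM, neither called. RBM44 showed the largest RBM estimate, 0.94, from 9 and 7 counts in the control and 24 and 16 counts in the SNP group, and at this depth was not called (edgeR adjusted p = 0.1929).

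Of the 7 members that the filter removed, HNRNPCL2, HNRNPCL3, HNRNPCL4, RBM11 and RBM46, the last a germline protein, had 0 counts in every library, which allows up to 0.372 to 0.534 CPM. Control libraries held 0 and 0 counts of HNRNPCL1 and SNP libraries 1 and 3; for RBM24, a muscle splicing factor, it was 0 and 2 and 0 and 1. No fold is given for these genes.

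Per length, the order of the most abundant members changed between the groups. The length is that of all annotated exons of a gene, merged: 3340 bases for SRSF1, 5093 for HNRNPA1 and 22512 for HNRNPU. The order therefore depends on the annotated forms. In control libraries SRSF1 led with 493 and 516 TPM, followed by HNRNPA1 with 484 and 478 TPM and HNRNPA2B1 with 412 and 371 TPM. Every SRSF1 value there was above both HNRNPA1 values, though by little. In SNP libraries HNRNPA1 led with 1309 and 948 TPM, SRSF1 had 769.6 and 685 TPM and HNRNPA2B1 714 and 584 TPM. HNRNPK, HNRNPA3 and HNRNPU, next in order of the mean, had 321 and 323, 261 and 273 and 251 and 250.3 TPM in control libraries.

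Related regulators often compete for the same sites or share substrates, so their balance was followed as the log2 ratio of TPM of the first over the second gene, for 18 pairs. The groups were apart for 14 pairs. No share over pairs of all genes was taken, and among single genes tested the CPM of 5306 of 14759 overlapped between groups. With 2 libraries against 2 an exact permutation test cannot go below 0.333, so the shifts are descriptions. HNRNPU over HNRNPUL1 moved most, from 0.55 and 0.63 in control to 1.77 and 1.44 in SNP libraries, and HNRNPA1 over HNRNPA2B1 from 0.23 and 0.36 to 0.87 and 0.70. SRSF5 over SRSF1 moved by 0.36, CLK1 over CLK2 by 0.23, and TRA2A over TRA2B and CLK1 over CLK4 by 0.19 each. Other ratios were lower in SNP libraries: RBM23 over RBM39 went from -2.11 and -1.93 to -2.52 and -2.36, RBM5 over RBM6 from -0.34 and -0.47 to -0.78 and -0.81, and HNRNPL over HNRNPLL from 1.06 and 0.83 to 0.79 and 0.66. HNRNPH1 over HNRNPH2 had 1.14 and 1.01 in control and 0.98 and 1.16 in SNP libraries; its groups overlapped, as did those of CLK4 over CLK3, SRSF4 over SRSF6 and RBM4 over RBM4B.

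These shifts differ in the fit with the composition offsets, a comparison chosen after the data were seen, in which a shift is the difference of the genes' log2 fold changes. HNRNPU over HNRNPUL1 shifted by 0.17 there and HNRNPA1 over HNRNPA2B1 by 0.58. The sign turned for 7 of 18 pairs, among them CLK1 over CLK2 at -0.40, HNRNPL over HNRNPLL at 0.12 and RBM5 over RBM10 at -0.12, and RBM23 over RBM39 was at 0.0018. TRA2A over TRA2B was at 0.18, CLK1 over CLK4 at 0.17, SRSF5 over SRSF1 at 0.18 and RBM5 over RBM6 at -0.22.

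**Figure D4:**
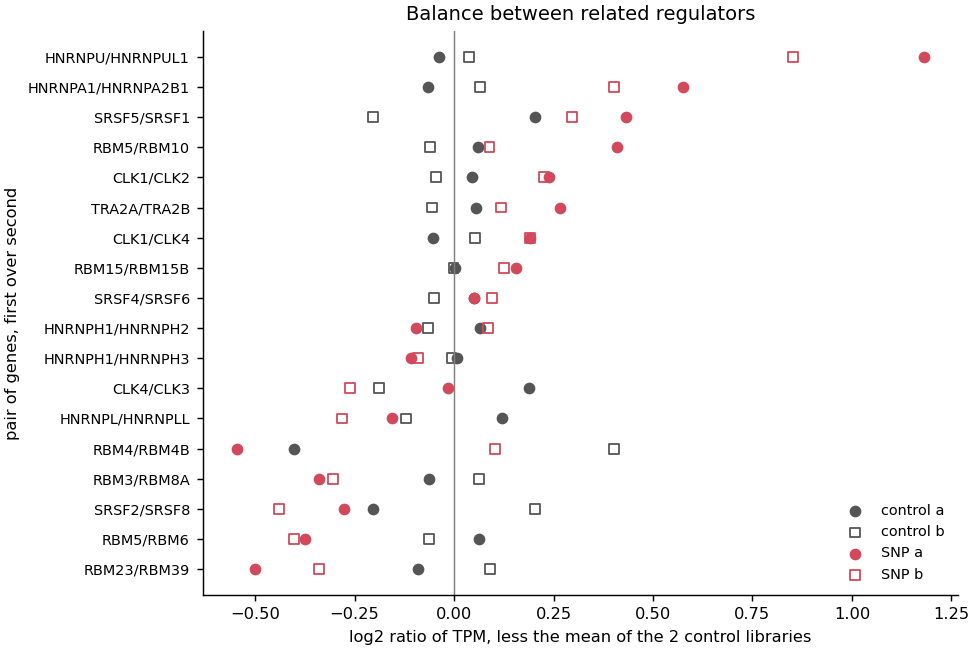
Log2 ratio of TPM of the first over the second gene of each of 18 pairs (y axis) in each library, less the mean of the 2 control libraries (x axis); grey marks are control and red marks SNP libraries, circles replicate a and squares replicate b. Averaged over the 2 SNP libraries, HNRNPU over HNRNPUL1 had the largest shift to the right, 1.02, and RBM23 over RBM39 the largest to the left, -0.42.

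The counts sum all transcripts of a gene, including forms that make no protein. At least 1 annotated transcript subject to nonsense-mediated decay was present for 42 of the 71 tested members (59.2%), among them 12 of 12 SRSF genes, and for 43.3% of 12826 protein-coding genes tested. Transcripts with a retained intron were annotated for 45 members (63.4%) and for 56.7% of those genes. CLK1 has 15 annotated transcripts, of which 8 retain an intron and 2 are marked for decay; SRSF5 has 19, with 8 and 1. Which forms the reads came from cannot be told apart in counts per gene.

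Exons of 42 tested members overlap exons of another gene on either strand, and the use of strand in counting is not given in the sources used here, so reads there cannot be told apart. In a fit limited to genes without such overlap, 29 members remained. Of these, 19 were called higher and 0 lower by edgeR, with 1, RBM22, lower at an unadjusted p under 0.05. Of all genes in that fit 1019 (14.1%) were called higher and 999 lower. The 19 are those of the 29 called in the fit on all genes. HNRNPL, with 561 of 6821 exonic bases shared with AC008982.1, was not among the 29.

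Of 156 tested genes in 5 lists of other splicing genes, 54 were called higher (34.6%, against 13.6% of all genes) and 22 lower (14.1%, near the 12.6% of all genes), with a median log2 fold change of 0.18; without control b the counts were 35 and 14. Proteins related to the members but named otherwise had 20 of 36 genes higher (55.6%) and 5 lower (13.9%), with a median of 0.37. Among them CIRBP, a cold-inducible relative of RBM3, went from 78.8 and 81.0 CPM to 194 and 143 CPM (log2 fold change 1.08, edgeR adjusted p = 4.0e-06). SAFB, a scaffold attachment factor like HNRNPU, went from 103 and 103 CPM to 200.2 and 189.8 CPM (log2 fold change 0.93, edgeR adjusted p = 1.9e-06). PCBP3, a cytosine-binding relative of HNRNPK, and SRRM2, a scaffold of nuclear speckles, fell by 0.63 and 0.39 on the log2 scale.

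Of 58 core spliceosome genes 17 rose (29.3%) and 7 fell (12.1%), with a median of 0.22. Of all genes 13.6% were called higher and 12.6% lower. SART1, of the tri-snRNP, went from 37.3 and 38.9 CPM to 89.6 and 90.9 CPM (log2 fold change 1.24, edgeR adjusted p = 4.2e-07), and PRPF38B had a log2 fold change of 0.98. SNRPB, a Sm ring protein, went from 58.9 and 58.6 CPM to 37.3 and 32.7 CPM (log2 fold change -0.75, edgeR adjusted p = 3.1e-04), and SF3A2 had -0.73. Among 19 kinases and phosphatases of SR proteins 7 rose (36.8%) and 3 fell (15.8%). PRPF4B, a kinase related to the CLK family, was at 0.97 and TOP1, which also phosphorylates SR proteins, at 0.52. The phosphatase subunit PPP1CA was at -0.65 and SRPK1, the cytoplasmic SR protein kinase, at -0.29. Of 14 exon junction complex genes 5 rose (35.7%) and 1 fell (7.14%), with PNN at 1.10, UPF3B at 1.08 and RNPS1 at -0.28. The calls of SRPK1 and RNPS1 were lost in DESeq2's Wald test and when either control library was left out, that of SRPK1 also without SNP b and that of RNPS1 without SNP a; PPP1CA lost its call without control b and SRRM2 without SNP a. With the composition offsets SF3A2, SRRM2, RNPS1 and UPF3B were not called.

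Of 29 tested neuronal and other sequence-specific factors 5 were higher (17.2%) and 6 lower (20.7%), shares not far from the 13.6% and 12.6% of all genes, with a median of -0.13 and a median composition of -0.50 points. FUBP3 and CELF1 rose by 0.57 and 0.44. PTBP1, the repressor of neuronal exons that also counts as an HNRNP protein, went from 244 and 261 CPM in control to 170.1 and 179 CPM in SNP libraries (log2 fold change -0.53, edgeR adjusted p = 3.9e-04), not called with the offsets. ELAVL4, a neuronal RNA-binding protein that is also on the adrenergic marker list, went from 712 and 661 CPM to 545 and 486 CPM (log2 fold change -0.41, edgeR adjusted p = 0.0020).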

How the data were processed

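The authors deposited 1 table per library, 4 in all, with an expression column of whole-number read counts per gene, not normalized, per the file headers and the values. A second deposited column holds TPM, scaled by the authors for gene length and library total. The length implied matched all annotated exons of a gene, merged, for 90.5% of the genes counted in control a. TPM was used for order by level and for ratios between genes, and so depends on which forms are annotated. Deposited RPKM values served only for the read total that count, length and RPKM imply, as an alternative library size. The build is GRCh38, per the submitters' processing notes; the aligner, the counter and the use of strand are not given in the sources used here.

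Counts were tested with edgeR 4.0.16 under R 4.3.3. The function filterByExpr (minimum count 10, minimum total 15) removed low genes, TMM scaled the libraries, and groups were compared, 2 SNP against 2 control libraries, by the quasi-likelihood test without covariates. The Benjamini-Hochberg adjustment ran over the 14759 genes tested, and 0.05 was the threshold. Standard errors were derived from the fold change and the F statistic. Summed counts of 5613144 to 8056550 per library set the precision. The scripts were tested on simulated data.

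Members were matched on symbol and class. All SRSF, TRA2 and CLK members are named; of HNRNP and RBM, up to 6 with the largest rise and 6 with the largest fall among called genes whose groups are apart, and the 3 most abundant by mean TPM; members that failed the filter; and up to 2 genes per list and direction by smallest adjusted p. Genes outside this rule (among them HNRNPA3, HNRNPA0, HNRNPF, HNRNPU, HNRNPUL1, HNRNPM, HNRNPR, HNRNPDL, HNRNPA1L2, HNRNPLL, RBM3, RBM5, RBM10, RBM19, RBM20, RBM22, RBM25, RBM26, RBM27, RBM33, RBM38, RBM39, RBM41 and RBM44) were chosen after their values were seen. The members, the lists and the alternatives were chosen with earlier results of these data known.

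Positions, exon overlaps on either strand, transcript classes and base composition came from GENCODE 29. Overlaps were summed over the overlapping genes, so a base shared with more than 1 gene counts for each. Offsets were lowess curves per library (span 0.5, 3 iterations) on exon length and GC content, with or without guanine over cytosine. Other alternatives were DESeq2 1.42.0 size factors and its Wald test, limma-voom (limma 3.58.1), total counts, RPKM read totals, scaling without the 20 most abundant genes, no filter, a mean of 50 counts, genes without exonic overlap, the replicate letter as a block, leaving out each library, and stricter calls (adjusted p under 0.01, or log2 fold change past 1 either way). Some markers, an overlap and a sequence are not reported here.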

Additional observations from a re-analysis of the deposited data

How the results depend on the processing

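Of the 42 members called, 6 (HNRNPA1, HNRNPAB, HNRNPH1, HNRNPU, HNRNPUL2 and RBM6) were called in the same direction in every fit that held them, and 21, these included, in every fit other than the 2 with guanine-over-cytosine offsets. The members called higher (41) were 12 with those offsets and 11 with the offsets and the replicate block, 19 without genes that overlap exons of another gene, where 29 members were fitted, 27 at an adjusted p under 0.01, 2 at a fold threshold (log2 fold change of 1 or more either way), and 26 to 42 on leaving out 1 library, lowest without control b. Members called lower (1) were 2 with the filter at a mean of 50 counts, with scaling without the 20 most abundant genes, with limma-voom, and with offsets on length and GC with or without the block, 4 with guanine-over-cytosine offsets with or without the block, 0 with RPKM read totals, without overlapping genes and at the fold threshold, and 0 to 3 on leaving out 1 library. Listed splicing genes higher (54) were 35, or 33 with the block, with guanine-over-cytosine offsets, 27 without overlapping genes, 4 at the fold threshold and 35 to 62 on leaving out 1 library; those lower (22) were 13, or 12 with the block, 9, 0 and 14 to 22, and 10 with RPKM read totals. All genes higher (2002) were 1272 in DESeq2's Wald test, 1019 without overlapping genes, 1156 at 0.01, 400 at the fold threshold and 1244 to 2155 on leaving out 1 library; all genes lower (1859) were 1218 with RPKM read totals and 1143, 999, 1068, 247 and 1162 to 1989. Fewer genes tested or a stricter threshold are part of the overlap and threshold counts; elsewhere the cause was not tested. With RPKM read totals 63.1% of all calls were higher, against 51.9% with TMM, and the median of all genes was 0.064.

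With guanine-over-cytosine offsets the sign of the log2 fold change turned for 22 members, 18 from positive to negative. Among these, 11 were called in either fit, given first without and then with the block: HNRNPA0 -0.114 and -0.114, HNRNPA2B1 -0.104 and -0.104, HNRNPA3 -0.279 and -0.278, HNRNPH3 -0.00716 and -0.00727, HNRNPR -0.0065 and -0.00692, RBM25 -0.0647 and -0.0652, RBM39 -0.00549 and -0.0055, RBM41 -0.34 and -0.344, SRSF1 -0.0100 and -0.0103, and SRSF10 -0.0658 and -0.0657; RBM17 was at -0.00275 without the block only. The replicate letters share no more than a name in the labels, and deviations of same-lettered libraries from their group means correlated at 0.05 across genes. With the letter as a replicate block 42 members were higher and 2 lower, and of all genes 2314 were called higher and 2173 lower. With 2 libraries a group, and 5613144 to 8056550 counts each, what change a member with few counts, such as RBM44, could have shown was not tested.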

Other observations

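Promoter letters were read for the members that RefSeq's table holds (GRCh38.p14), 70 of 78, over the 250 bases before each gene's start as RefSeq places it, on both strands; GENCODE 29 can place the start elsewhere, for HNRNPAB within the printed bases. The CCAAT box (CCAAT) was found in 36 of 70 members (51.4%) and in 33.0% of 27305 promoters of the same length; among the 37 members of this set that were called higher, 17 (45.9%) held it. The ETS core (CCGGAAG) was found in 11 members (15.7%) and 8.82% of promoters, the TATA box (TATAAA) in 5 members (7.14%) and 11.1% of promoters, and the element TCTCGCGA in 2 members (2.86%) and 1.05% of promoters. None of these 4 words contains another. The promoter of HNRNPAB, the member with the largest rise, is printed because it carries both CCAAT, on 2 occasions, and TATAAA, in capitals (chr5:178204283-178204532, plus strand).
HNRNPAB: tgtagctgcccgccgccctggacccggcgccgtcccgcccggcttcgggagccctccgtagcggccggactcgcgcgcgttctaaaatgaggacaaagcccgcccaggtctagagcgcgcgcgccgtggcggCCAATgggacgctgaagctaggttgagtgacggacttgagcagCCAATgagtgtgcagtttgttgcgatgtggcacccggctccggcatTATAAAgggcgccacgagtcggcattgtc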
